A study of Mus musculus with 6 samples.

Results

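The 4 Notch receptor genes (Notch1, Notch2, Notch3 and Notch4) and the 5 genes of their classical ligands (Dll1, Dll3, Dll4, Jag1 and Jag2) were followed in whole retinas of newborn mice. The members were chosen by name and found by Ensembl identifier, 9 of the 39179 gene rows deposited for each library. Retinas of 3 conditional knockout mice (cKO), with both Lhx2 alleles floxed and a Pdgfra-Cre transgene, were compared with those of 3 controls that had the floxed alleles but no Cre (wild type in the series text, Lhx2 lox/lox in the genotype labels). All 6 mice were of a mixed, mainly CD-1 background and were taken at postnatal day 0.5. Lhx2 is a LIM homeodomain factor of eye progenitors. Cre removes the floxed alleles in cells that have switched on the Pdgfra promoter, so retinal cells without that history keep Lhx2, and controls without the transgene do not account for Cre itself. The cKO libraries carry the label numbers 1, 2 and 3 and the controls 2, 3 and 4. Levels are in CPM, scaled between libraries by TMM. Each gene's reads are taken relative to its library's reads in genes that passed a filter on low counts.

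Notch signalling passes between touching cells. A Delta or Jagged ligand on one cell pulls on a Notch receptor of its neighbour, ADAM proteases and gamma-secretase then cut the receptor, and the freed intracellular domain joins the DNA-binding protein RBPJ and a Mastermind coactivator to switch on genes of the Hes and Hey families. In the mouse retina Notch1 is the main receptor of progenitors and holds them back from becoming neurons, while Dll1 and Dll4 are made by cells that are leaving the cycle. Jag1 is best known from the lens and the ciliary margin, Notch3 from pericytes and vascular smooth muscle, and Notch4 from endothelium.

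In GENCODE vM21 (GRCm38), Notch1 (ENSMUSG00000026923) lies at chr2:26457903-26516663 on the minus strand, Notch2 (ENSMUSG00000027878) at chr3:98013527-98150361 on the plus strand, Notch3 (ENSMUSG00000038146) at chr17:32120820-32166852 on the minus strand and Notch4 (ENSMUSG00000015468) at chr17:34564268-34588503 on the plus strand. Of the Delta genes, Dll1 (ENSMUSG00000014773) lies at chr17:15367354-15376872 on the minus strand, Dll3 (ENSMUSG00000003436) at chr7:28293553-28302238 on the minus strand and Dll4 (ENSMUSG00000027314) at chr2:119325784-119335962 on the plus strand. Jag1 (ENSMUSG00000027276) lies at chr2:137081456-137116644 and Jag2 (ENSMUSG00000002799) at chr12:112907819-112929776, both on the minus strand.

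The promoters of the member genes were examined because the Delta and Jagged genes moved in opposite directions. All 9 members had an entry among the RefSeq promoters (build GRCm38.p6). Bases were left off the downstream end until a window met no GENCODE exon of its gene. At least 100 bases remained for 7 of the members, but not for Dll3 and Jag2. The windows of Dll1, Dll4 and Notch1, which fell, and of Jag1, which rose, are given 5′ to 3′ on the strand of the gene. Capitals mark CAGCTG (the E-box form bound by proneural factors) and GGGCGG or its reverse complement (the GC box).
Dll1 (chr17:15376933-15377182, minus strand): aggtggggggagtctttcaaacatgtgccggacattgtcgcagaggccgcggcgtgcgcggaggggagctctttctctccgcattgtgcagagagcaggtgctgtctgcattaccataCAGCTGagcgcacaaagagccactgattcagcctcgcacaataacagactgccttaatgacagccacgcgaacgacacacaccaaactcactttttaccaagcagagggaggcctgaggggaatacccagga
Dll4 (chr2:119325534-119325783, plus strand): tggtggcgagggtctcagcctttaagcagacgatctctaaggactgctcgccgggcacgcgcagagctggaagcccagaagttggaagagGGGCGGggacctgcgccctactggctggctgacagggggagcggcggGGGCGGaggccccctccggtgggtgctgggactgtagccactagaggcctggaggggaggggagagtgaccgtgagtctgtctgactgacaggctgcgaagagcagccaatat
Notch1 (chr2:26503825-26504072, minus strand): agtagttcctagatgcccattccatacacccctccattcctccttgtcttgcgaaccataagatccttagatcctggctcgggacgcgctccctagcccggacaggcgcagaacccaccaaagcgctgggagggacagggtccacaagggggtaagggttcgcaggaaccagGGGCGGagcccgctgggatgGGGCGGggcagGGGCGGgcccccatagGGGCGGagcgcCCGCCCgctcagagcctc
Jag1 (chr2:137116645-137116770, minus strand): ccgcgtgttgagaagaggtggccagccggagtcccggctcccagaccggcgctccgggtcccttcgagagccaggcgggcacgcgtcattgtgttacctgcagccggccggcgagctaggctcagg
The Dll1 window held 1 CAGCTG, its first base 132 bases before the RefSeq start, and no GC box. CAGCTG was in 13% of the 250-base windows of all 32851 RefSeq promoters. GC boxes were in 4 of the 7 windows, 5 each in Notch1 and Notch2, 4 in Notch3 and 2 in Dll4, and in 32.7% of all windows. The Jag1 window is only 126 bases long, and those of Notch1, Notch2 and Notch4 were cut to 248, 239 and 223 bases. These windows, that of Jag1 above all, could hold fewer motifs than the 250-base windows of all promoters. The RBPJ core TGGGAA, searched on both strands, was in 0 of the 7 member windows and in 21.6% of all windows. TAATTA, a core bound by LIM homeodomain proteins, was also in 0 of the 7 and in 4.84% of all. CAGCTG is one form of the general E-box CANNTG, which was in 2 of the 7 member windows and 66.2% of all. The Notch1 window precedes the RefSeq start, which lies inside the GENCODE gene, whose outermost start is at base 26516663. These counts describe letters in a window and not binding.

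The libraries were of 31483170 to 66947478 gene reads, and the members had between 133 reads (Notch4 in control 4) and 26977 reads (Notch1 in cKO 2). Lhx2 itself was at 252, 287 and 224 CPM in cKO 1, 2 and 3, against 399, 266 and 258 CPM in controls 2, 3 and 4 (log2 fold change -0.40, adjusted p = 0.0338 in the fit described next). Counts over the whole gene can include exons that Cre leaves in place. The libraries fell into 2 sets that crossed genotype and that the labels do not name, by the share of counts ambiguous between genes. Set A (cKO 1, cKO 2 and control 2) had 3.13 to 3.20% and set B (cKO 3, control 3 and control 4) had 2.63 to 2.69%. Between the sets 63.7% of genes differed, 31.2% being lower and 32.5% higher in set B. Of the members 6 were lower and 1, Jag1, was higher in set B, and Notch1 and Notch2 did not pass. The comparison of genotypes therefore took library set as a term, and the fit of genotype alone is given beside it. All 3 cKO mice and control 3 were female by Y-linked reads, and controls 2 and 4 were male.

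**Figure D1:**
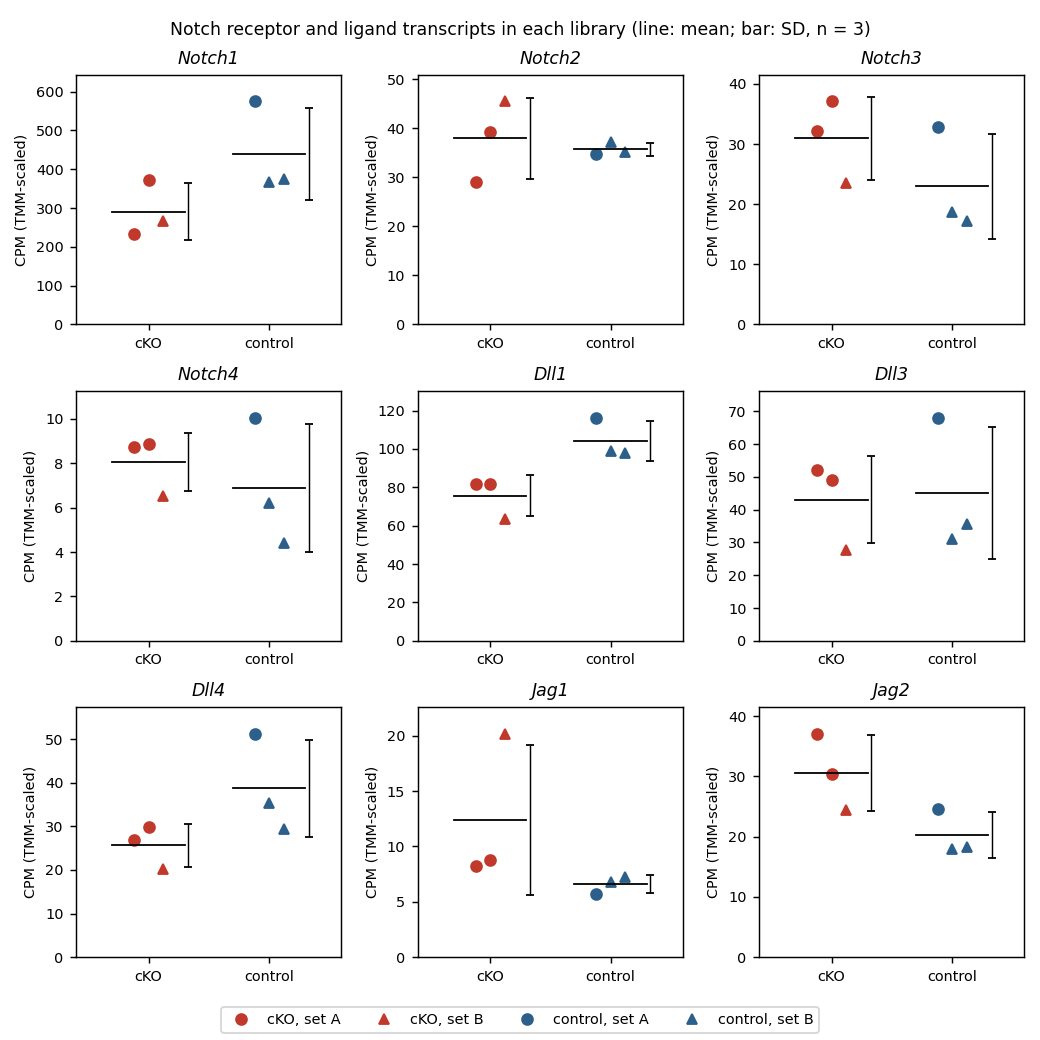
CPM of each member gene (vertical axes, from 0) in the 3 cKO and the 3 control libraries, with circles for set A and triangles for set B, a line at the mean and a bar of 1 SD (n = 3). The cKO libraries lie below all controls for Dll1 and above all controls for Jag1, while the other 7 genes overlap between groups, several of them because set A and set B differ.

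With library set as a term, 1 of 4 receptors (Notch1) and 3 of 3 Delta genes fell in the cKO retinas, and both Jagged genes rose. Over all 16691 genes tested, 5.63% fell and 6.36% rose in the same fit (edgeR's quasi-likelihood test, adjusted p under 0.05). In bulk RNA, fewer cells of a type and less RNA per cell cannot be told apart. All 9 members passed the filter on low counts. With genotype alone 0 of the 9 passed in edgeR, in DESeq2 or in limma-voom, and 0.216% of all genes did in edgeR, all of them higher. At an unadjusted p under 0.05 that fit had Jag2 higher and Dll1 lower. The calls also depended on the libraries kept: without cKO 3 only Dll4 fell and 0 members rose. Without control 2 only Dll1 fell and only Jag1 rose. Either loss takes a whole set out of the genotype comparison, so these fits compare genotypes within the other set only. They are therefore not independent of the within-set values given below. With sex as a further term 0 members passed, although 2 higher and 2 lower had an unadjusted p under 0.05. The log2 fold changes were then -0.61 for Dll1, -0.90 for Dll4, 1.34 for Jag1 and 0.46 for Jag2. Those of Notch1 (-0.58) and Dll3 (-0.18) were nearer 0 than without sex. The SE was larger for each of these genes, for Jag1 0.32 against 0.20, and control 3 was the only female control.

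Notch1, by far the most counted receptor, fell in the cKO retinas and was lower in both sets. Its transcripts stood at 232, 373 and 267 CPM in cKO 1, 2 and 3, against 575, 367 and 375 CPM in controls 2, 3 and 4. The groups overlapped only because cKO 2, of set A, was level with the set B controls. Against the control or controls of its own set each cKO library was lower. The log2 fold change was -0.70 (adjusted p = 0.0319, SE 0.17); set A alone gave -0.97 and set B alone -0.48. The adjusted p was above 0.05 when control 2 was left out (-0.48, adjusted p = 0.319), as it did for control 3 (0.0712), control 4 (0.0581) or cKO 3 (0.0896), and in DESeq2 (0.0960). With genotype alone the value was -0.60 (adjusted p = 0.738).

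The other receptors did not pass the threshold in any of the fits run with library set. Notch2, which is broadly expressed, was at 29.1, 39.3 and 45.5 CPM in cKO 1, 2 and 3, against 34.8, 37.3 and 35.1 CPM in controls 2, 3 and 4. The 3 controls lay within the range of the 3 cKO libraries, and the log2 fold change was 0.15 with a 95% interval of -0.15 to 0.46 (adjusted p = 0.533). Notch3 was at 32.2, 37.1 and 23.6 CPM in cKO 1, 2 and 3, against 32.9, 18.7 and 17.2 CPM in controls 2, 3 and 4. In set B the cKO library was higher than both controls, while in set A the control lay between the cKO libraries; the fit gave 0.23 (-0.03 to 0.48, adjusted p = 0.250). Notch4, the least counted receptor, was at 8.73, 8.89 and 6.54 CPM in cKO 1, 2 and 3, against 10.1, 6.22 and 4.41 CPM in controls 2, 3 and 4. Its log2 fold change was 0.04 (-0.38 to 0.46, adjusted p = 0.922) and differed in sign between sets, being -0.19 in set A but 0.32 in set B. For these 3 genes the intervals leave room for changes in either direction.

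Per length, Notch1 made up less of the receptor RNA in cKO retinas. CPM divided by kilobases of summed exons allows the genes to be compared with each other. On that scale Notch1 was 67.7, 73.7 and 70.2% of the receptor sum in cKO 1, 2 and 3, against 82.5, 79.8 and 81.6% in controls 2, 3 and 4. The groups did not overlap, and the means were 70.6 ± 3.01% and 81.3 ± 1.42% (SD, n = 3). Notch3 had the next largest part in cKO 1 and cKO 2, where it was 16.5 and 12.9%, against 8.32% in control 2. Notch2 had it in cKO 3, with 15.8%, against 10.7 and 10.1% in controls 3 and 4. These shares are a description over the chosen genes and were not tested.

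All 3 Delta genes were lower in every cKO library than in the control or controls of the same set. Such an order in both sets held for 23.8% of all genes tested. Dll1, a ligand that activates Notch on neighbouring progenitors, was at 81.7, 82.0 and 63.3 CPM in cKO 1, 2 and 3, against 116, 98.8 and 97.8 CPM in controls 2, 3 and 4. All cKO libraries were below all controls, an order that held for 5.54% of genes. On the log2 scale Dll1 fell by 0.57 (adjusted p = 0.00330, SE 0.08); set A alone gave -0.51 and set B alone -0.64. It kept an adjusted p under 0.05 without any one library except cKO 3 (-0.48, adjusted p = 0.0730). Exons of A930024N18Rik, on the other strand, cover 20.6% of the exon bases of Dll1, and reads there cannot be assigned with certainty because the strand setting is not given. That gene was at 4.50, 4.68 and 9.33 CPM in cKO 1, 2 and 3, against 4.83, 6.28 and 6.89 CPM in controls 2, 3 and 4, and its difference did not pass (0.22, adjusted p = 0.504).

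Dll4, a ligand of newborn retinal neurons and of sprouting endothelium, fell with library set as a term. It was at 26.8, 29.9 and 20.1 CPM in cKO 1, 2 and 3, against 51.2, 35.4 and 29.5 CPM in controls 2, 3 and 4. Only cKO 2 and control 4, of different sets, were at about the same level. The log2 fold change was -0.77 (adjusted p = 0.00361, SE 0.11); set A alone gave -0.85 and set B alone -0.68. Without control 2 it was -0.69 (adjusted p = 0.0647), and without any other single library the adjusted p stayed under 0.05. Gm14207, whose exons cover 5.56% of the exon bases of Dll4 from the other strand, fell too (-0.76, adjusted p = 0.0419); it was at 7.62, 6.72 and 11.2 CPM in cKO 1, 2 and 3, against 9.51, 20.3 and 28.2 CPM in controls 2, 3 and 4.

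Dll3, a divergent Delta that acts within its own cell and does not activate Notch on neighbours, had the smallest fall. It was at 52.1, 49.2 and 27.8 CPM in cKO 1, 2 and 3, against 68.1, 31.1 and 35.8 CPM in controls 2, 3 and 4. Set A libraries were high and set B libraries low in both groups, and the set B minus set A difference was -0.95 (log2; adjusted p = 2.9e-05, SE 0.09), the largest set difference of any member. The log2 fold change between genotypes was -0.35 (adjusted p = 0.0429, SE 0.09); set A alone gave -0.43 and set B alone -0.26. This call was near the threshold and was lost without any one library other than cKO 1, with adjusted p of 0.0530 to 0.385. It was also lost with no scaling between libraries (0.0577) and with a stricter filter on low counts (0.0521). With genotype alone the value was -0.06.

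**Figure D2:**
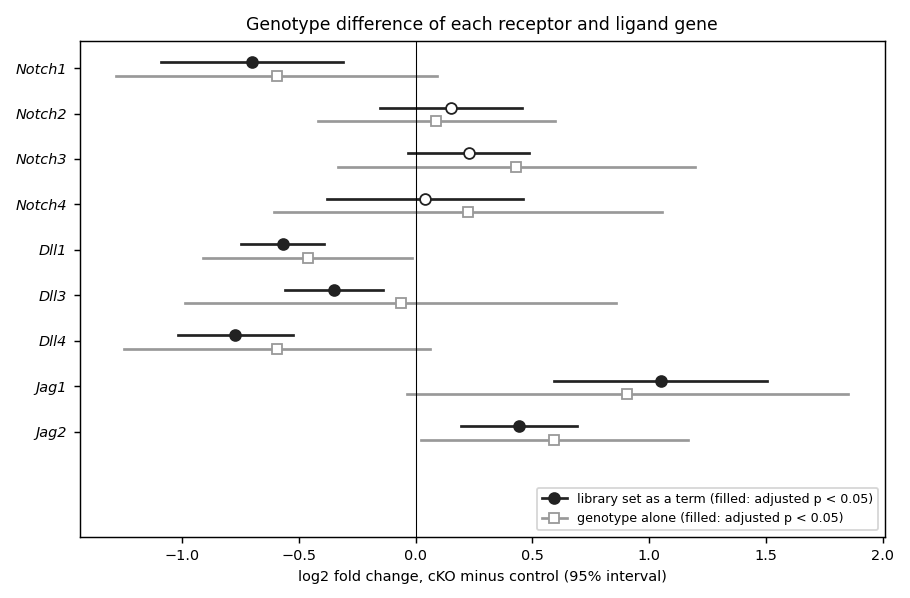
Log2 fold change of each member, cKO minus control, with its 95% interval (horizontal axis), fitted with library set as a term (circles) and with genotype alone (squares); filled symbols have an adjusted p under 0.05. Notch1 and the 3 Delta genes lie left of 0 and both Jagged genes right of 0 with library set, while no square is filled.

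Both Jagged genes were higher in every cKO library than in the controls of the same set, an order that held in both sets for 22.9% of all genes. Jag1, the ligand needed for lens development in mice, was at 8.21, 8.76 and 20.2 CPM in cKO 1, 2 and 3, against 5.73, 6.79 and 7.26 CPM in controls 2, 3 and 4. All cKO libraries were above all controls, as for 8.38% of genes, but cKO 3 stood far above cKO 1 and cKO 2. The log2 fold change was 1.05 (adjusted p = 0.0120, SE 0.20); set A alone gave 0.56 and set B alone 1.52. Without cKO 3 it was 0.60 (adjusted p = 0.225), and without control 2 it was 1.52 (adjusted p = 0.00294). The test of the difference between sets gave 0.95 (SE 0.28, unadjusted p = 0.00787, adjusted p = 0.945); of all genes 0.024% passed that interaction test.

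Jag2 differed less but more evenly between the sets. It was at 37.0, 30.4 and 24.4 CPM in cKO 1, 2 and 3, against 24.7, 17.9 and 18.3 CPM in controls 2, 3 and 4. The lowest cKO library, cKO 3, was level with the highest control, control 2, which belongs to the other set. The log2 fold change was 0.44 (adjusted p = 0.0336, SE 0.11); set A alone gave 0.44 and set B alone 0.43. Leaving out cKO 1 or cKO 2 kept the call, while leaving out cKO 3 or any control lost it, with values of 0.43 to 0.48 and adjusted p of 0.0923 to 0.209.

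**Figure D3:**
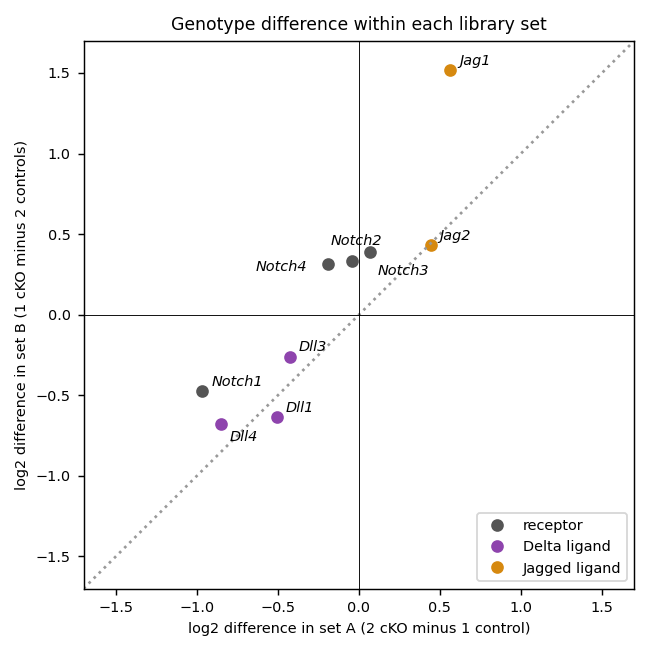
Log2 difference of each member between cKO and control within set A (horizontal axis, 2 cKO and 1 control) and within set B (vertical axis, 1 cKO and 2 controls), which share no library; the dotted line marks equal values. Notch1 and the Delta genes are negative and the Jagged genes positive in both sets, Jag1 at 0.56 and 1.52, whereas Notch2 and Notch4 are below 0 in set A and above 0 in set B.

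The balance between the ligand types differed, with less Delta and more Jagged RNA in cKO retinas. Summed over Dll1, Dll3 and Dll4, Delta transcripts were at 161, 161 and 111 CPM in cKO 1, 2 and 3, against 236, 165 and 163 CPM in controls 2, 3 and 4. The Jagged sum was 45.2, 39.1 and 44.5 CPM in cKO 1, 2 and 3, against 30.4, 24.7 and 25.5 CPM in controls 2, 3 and 4. Delta therefore exceeded Jagged by 3.55, 4.11 and 2.50 times in cKO 1, 2 and 3, against 7.75, 6.69 and 6.39 times in controls 2, 3 and 4. The ratio did not overlap between the groups, and the 2 cKO libraries of set A were nearer to the control range than cKO 3. Its log2 difference with library set as a term was -1.20, being -1.02 within set A and -1.39 within set B. Since the ratio is a score over chosen genes, it was not tested. Delta genes remained the larger part of ligand RNA in every library: per length, Jagged RNA was 13.1, 11.7 and 18.8% of all ligand RNA in cKO 1, 2 and 3, against 6.53, 7.91 and 8.18% in controls 2, 3 and 4.

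**Figure D4:**
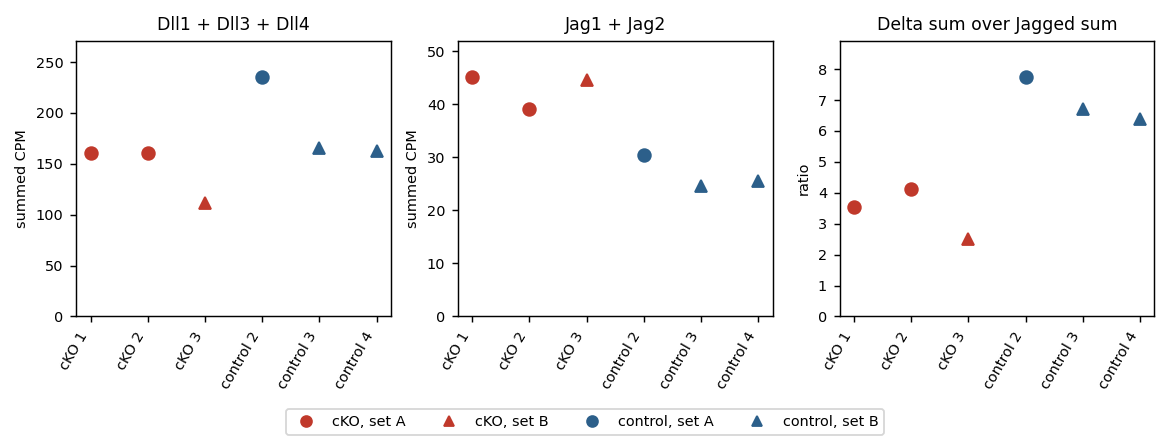
Summed CPM of the 3 Delta genes (left), summed CPM of the 2 Jagged genes (middle) and their ratio (right) in each library, with circles for set A and triangles for set B and all axes from 0. The ratio is 2.50 to 4.11 in the cKO libraries and 6.39 to 7.75 in the controls.

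Per length the order of the members was nearly the same in both groups. In cKO retinas Notch1 (20.4 ± 5.16 CPM per kilobase of exon) and Dll1 (17.9 ± 2.54) were followed by Dll3 (15.1 ± 4.65), Dll4 (6.65 ± 1.30), Jag2 (4.39 ± 0.908), Notch3 (3.83 ± 0.847), Notch2 (3.52 ± 0.769), Jag1 (2.12 ± 1.16) and Notch4 (0.999 ± 0.163; SD, n = 3). In controls the order was Notch1 (30.8 ± 8.28), Dll1 (24.7 ± 2.47), Dll3 (15.8 ± 7.07), Dll4 (10.04 ± 2.91), Notch2 (3.31 ± 0.128), Jag2 (2.91 ± 0.546), Notch3 (2.84 ± 1.07), Jag1 (1.13 ± 0.135) and Notch4 (0.855 ± 0.358; SD, n = 3). In controls neighbours overlapped between libraries except Dll4 and Notch2, and Notch3 and Jag1. Jag2 stood above Notch2 in cKO retinas and below it in controls, but its libraries overlapped with those of its neighbours in both groups.

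Other genes of the pathway are grouped here by role. With library set as a term 12% of all genes tested passed in either direction, and with genotype alone 0 genes of the pathway lists passed. Of 10 genes for cleavage of the receptor, 0 passed in edgeR, in DESeq2 or in limma-voom with library set as a term, and 1 was higher at an unadjusted p under 0.05. That was Psen2, a catalytic subunit of gamma-secretase, at a log2 fold change of 0.33 (adjusted p = 0.184). The subunit gene Aph1c (0.48, adjusted p = 0.297) and its relative Aph1b (0.16, adjusted p = 0.333) were next by p. Adam10, the protease that makes the first ligand-driven cut, was at 151, 157 and 258 CPM in cKO 1, 2 and 3, against 160, 250 and 239 CPM in controls 2, 3 and 4. The median log2 fold change over the 10 genes was -0.01 with library set and 0.14 with genotype alone, beside -0.000982 and 0.017 over all genes tested.

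Of 5 genes for sugar transfer to the receptor, Lfng alone passed. Lfng encodes Lunatic fringe, which adds a sugar that favours Delta over Jagged as the partner of Notch1. It fell to 67.9, 66.6 and 49.9 CPM in cKO 1, 2 and 3, against 104, 72.8 and 73.8 CPM in controls 2, 3 and 4. All cKO libraries were below all controls, an order that held for 5.54% of all genes tested. The log2 fold change was -0.59 (adjusted p = 0.00267, SE 0.08), while set A alone gave -0.63 and set B alone -0.55. Lfng kept that call without any one library and lost it when sex was added (-0.56, SE 0.13, adjusted p = 0.0852). The related fringe genes Mfng (-0.02, adjusted p = 0.921) and Rfng (0.09, adjusted p = 0.643) did not pass.

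Of 13 genes for ubiquitin transfer and endocytosis, Dtx4 fell (-0.62, adjusted p = 0.0111, SE 0.12) and 0 rose. Dtx4 is a Deltex ubiquitin ligase, at 278, 369 and 278 CPM in cKO 1, 2 and 3, against 536, 404 and 389 CPM in controls 2, 3 and 4. Its call was lost without control 2 or cKO 3. DESeq2 called 3 genes of the list lower, beside 1672 of all genes (939 in edgeR). Mib1, the ligase that primes ligands for endocytosis, had a log2 fold change of -0.04 (adjusted p = 0.816). Of 9 genes of the nuclear complex and its turnover, Fbxw7, whose product marks the Notch intracellular domain for breakdown, fell (-0.47, adjusted p = 0.0130, SE 0.09) and 0 rose. That call was lost without control 2, control 3 or cKO 3. Rbpj itself had a log2 fold change of 0.26 (adjusted p = 0.252).

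Of 10 genes listed as targets of Notch, Hes1 and Hey1 fell and 0 rose, with a median log2 fold change over the list of -0.32 with library set and 0.000116 with genotype alone. Hes1, a repressor of neuronal genes, fell to 59.2, 54.0 and 34.3 CPM in cKO 1, 2 and 3, against 93.4, 68.9 and 60.9 CPM in controls 2, 3 and 4 (-0.82, adjusted p = 0.00185, SE 0.10), and did so without any one library. On the log2 scale Hey1 fell by 0.50 (adjusted p = 0.0243, SE 0.11), a call lost without control 2, control 3, cKO 2 or cKO 3. Without cKO 1, Id3 and Hes6 fell as well, and without cKO 2 Heyl did. DESeq2 called 6 of the list lower, beside 1672 of all genes (939 in edgeR). With sex as a further term 1 of the list was lower, beside 63 of all genes. Hes5, another Notch effector, was at 138, 83.8 and 14.2 CPM in cKO 1, 2 and 3, against 97.3, 18.9 and 25.5 CPM in controls 2, 3 and 4, and did not pass (-0.19, adjusted p = 0.681).

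Of 5 genes for related EGF-repeat proteins, 3 rose and 0 fell. Dlk1, a Delta-like protein without the DSL domain that binds Notch, was at 5.53, 4.82 and 5.21 CPM in cKO 1, 2 and 3, against 1.44, 0.658 and 1.19 CPM in controls 2, 3 and 4 (2.16, adjusted p = 0.00262, SE 0.28). Dlk2 rose by 0.64 (adjusted p = 0.0434, SE 0.17), and so did Dner, a transmembrane protein of neurons, by 0.47 (adjusted p = 0.0109, SE 0.09). Without cKO 3 none of these was called, and without control 2 only Dlk1 was; Dlk2 was also lost without control 3, control 4 or cKO 1. Adding sex left 1 gene of the list called.

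**Figure D5:**
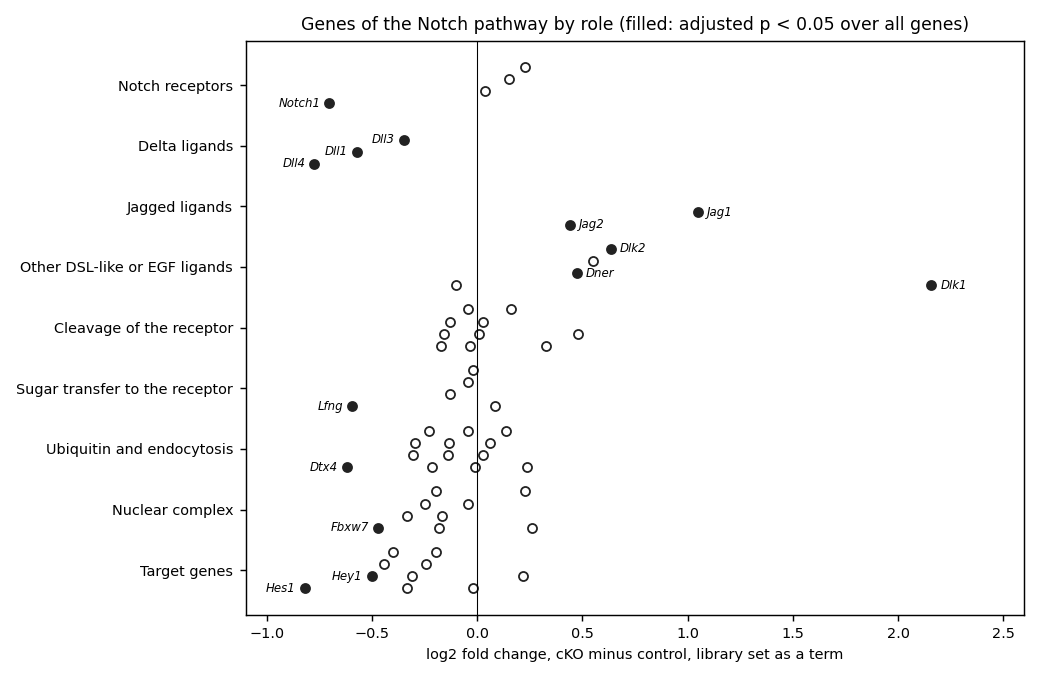
Log2 fold change, cKO minus control with library set as a term (horizontal axis), of each tested gene of the Notch pathway, in rows by role; filled points have an adjusted p under 0.05 over all genes and carry their names. Filled points are on the right of 0 for the Jagged genes and for Dlk1, Dlk2 and Dner, and on the left for Notch1, the Delta genes, Lfng, Dtx4, Fbxw7, Hes1 and Hey1.

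The cells of the samples could be checked by marker lists. Each listed marker had reads in at least 1 library. The list counts stand beside 939 lower and 1062 higher among all 16691 genes in the fit with library set. Over all genes, leaving out cKO 3 gave 134 lower and 176 higher, and leaving out control 2 gave 168 and 552. Leaving out cKO 1 gave 1336 lower and 1371 higher, and adding sex gave 63 and 173. Retinal identity was clear, with a summed level of 2188 to 3558 CPM over 8 markers in cKO and 3149 to 4136 CPM in controls, and Rax, Six6 and Otx2 fell. Of 10 progenitor markers, several of them also in the identity list, 8 fell and 0 rose, with a sum of 3333 to 4491 CPM in cKO and 6553 to 6852 CPM in controls; 6 did without control 2, and 3 when sex was added. Hes1 is one of the 8, and Notch1, Dll1 and Lfng fell in the same fit. Of 10 markers of neurogenic progenitors 4 fell and 0 rose, with a sum of 891 to 1668 CPM in cKO and 1253 to 2470 CPM in controls. Of the 10 markers 1 fell without control 2, 2 without control 3, control 4 or cKO 3, and 6 without cKO 1; with sex as a further term 1 fell. The part of these cell types in the Notch results was not tested.

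Markers of cells outside the neural retina also moved. Losses of calls without cKO 3 or with sex came alongside fewer calls over all genes, as given above. Of 12 endothelial markers 10 rose and Kdr fell, while Dll4 fell and Notch4 did not pass. Kdr, which retinal progenitors express as well, made up most of the list's sum of 277 to 504 CPM in cKO and 535 to 706 CPM in controls, and without cKO 3 the list had 0 calls, while Kdr also lost its call without control 2 or control 3. Of 10 markers of pericytes and smooth muscle 5 rose and 0 fell (1 without cKO 3, 2 without control 3 or control 4, 7 without cKO 1), with a sum of 40.7 to 136 CPM in cKO and 21.8 to 28.6 CPM in controls. The highest sum was that of cKO 3, the library with the most Jag1. Among the cKO libraries, cKO 3 also had the highest sums of the retinal identity, endothelial, ciliary margin, astrocyte and both progenitor lists. Its lens and microglial sums were the lowest among them. Of 13 tested lens markers 12 rose and 0 fell, at a sum of 990 to 2393 CPM in cKO and 98.9 to 136 CPM in controls, with the crystallin gene Cryaa at 1101, 1236 and 423 CPM in cKO 1, 2 and 3, against 1.29, 0.419 and 0.0994 CPM in controls 2, 3 and 4. Prox1, which the retina also expresses, made up most of the sum in controls and did not pass; it was at 61.7, 90.8 and 122 CPM in cKO 1, 2 and 3, against 92.4, 121 and 132 CPM in controls 2, 3 and 4. Cryaa was lowest among the cKO libraries in cKO 3, where Jag1 was highest. Since cKO 3 is the only cKO library of set B, its rank cannot be told apart from library set. Jag1 was higher in set B (log2 difference of 0.79), and Cryaa was lower in controls 3 and 4, of set B, than in control 2. Of 11 ciliary margin and iris markers 4 rose and 0 fell (1 without cKO 3, 6 without control 2), from 318 to 463 CPM in sum in cKO and 225 to 267 CPM in controls. Of 7 microglial markers 5 rose and 0 fell (2 without cKO 3; 36.3 to 62.5 CPM in cKO, 13.2 to 30.9 CPM in controls), and of 7 astrocyte markers only Aldh1l1 rose, a call lost without control 3, control 4, cKO 2 or cKO 3 (395 to 639 CPM in cKO, 318 to 586 CPM in controls). With sex as a further term 12 lens, 3 endothelial, 2 pericyte, 1 ciliary margin, 0 astrocyte and 0 microglial markers rose. With genotype alone 9 lens markers rose and 0 of the other lists passed, beside 36 higher and 0 lower of all genes. The part of these cells in the Jagged and Delta values was not tested.

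The genes closest in pattern to 3 members were found by the root mean square distance of log2 CPM, centred per gene, over the 6 libraries among 11445 other genes of at least 5 CPM. Closest to Notch1 were Rnf144b, Cdc6, Dtx4, Trim25 and Fignl1, at distances of 0.11 to 0.14. Closest to Dll1 were Rfc5, Cbx2, Cenpl, Spag5 and Shmt1, at 0.03 to 0.06. Closest to Jag1 were Bche, Crim1, Emp1, Dab2 and Plekhh2, at 0.14 to 0.16. Their direction follows from that choice. The libraries share their set and genotype, so these distances describe likeness in 6 libraries only.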

How the data were processed

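Per the labels' protocols, retinas were flash frozen, RNeasy columns (Qiagen) gave the RNA and TruSeq RNA chemistry (Illumina) the libraries. The authors deposited raw read counts per Ensembl gene, 1 file per library; STAR, HTSeq, edgeR and build GRCm38 are named in the submitters' processing notes, and no source used here gives the strand setting. Rows that name no gene held 26.4 to 28.8% of counts and stayed out of library sizes. Symbols, exon lengths and positions came from GENCODE vM21 (GRCm38), which matched 96.21% of identifiers.

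The tests were run with edgeR 4.0.16 (R 4.3.3), using filterByExpr by group, TMM scaling, glmQLFit and glmQLFTest with genotype and library set (set A above 2.9% ambiguous counts), adjusted by Benjamini-Hochberg over all genes, with a threshold of 0.05. Residual degrees of freedom were 3, or 4 with genotype alone. Intervals use the fitted SE. The test was checked on simulated counts. Within-set differences use log2 CPM with a prior count of 2. Alternatives used RLE or no scaling, other filters, single libraries left out, sex, the label number, DESeq2 1.42.0 (without independent filtering) and limma-voom 3.58.1.

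The members, library sets and gene lists were chosen with earlier results of these data known. Members were always named; of the other pathway lists, genes past the threshold or of smallest p were named, and a few others (Adam10, Mfng, Rfng, Mib1, Rbpj, Hes5, Hes6, Id3, Heyl, Cryaa, Prox1, Gm14207 and A930024N18Rik) after their values were seen. The series text gives 3 mice a group. The chi-square per degree of freedom between libraries of a group was 23.0 to 532, so none was another library of its group merely sequenced again. That check cannot exclude a second library made from the same mouse. Label numbers 2 and 3 occur in both groups, but nothing says that a number marks a shared litter or batch. Individual values of some listed marker genes are not reported here.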

Additional observations from a re-analysis of the deposited data

How the results depend on the processing

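Dll1, Dll4, Jag1, Jag2, Notch1 and Dll3 kept their direction in all 14 alternatives run with library set as a term, and their adjusted p stayed under 0.05 in 12, 12, 12, 8, 8 and 5 of them. With sex as a further term 173 genes rose and 63 fell, and of the members 0 rose and 0 fell. With library set the count of falling genes was 1592 with no filter and 1672 in DESeq2, and with genotype alone DESeq2 called 313 higher and 155 lower. Leaving out single libraries gave 176 to 1371 higher and 134 to 1336 lower genes with library set, and 0 to 2 higher and 1 to 4 lower members. With genotype alone it gave 0 to 34 higher and 0 to 3 lower genes. In the fit with library set, leaving out control 2 or cKO 3 left the genotype difference to the other set alone. The cause of the other shifts was not tested beyond the loss of libraries itself. The log2 Delta to Jagged ratio, -1.20 in the report, was -1.55 without Dll4 and Jag2 and -1.39 to -1.02 without single libraries. The ends of that range, without control 2 and without cKO 3, are the values within set B and within set A.

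The label number as a replicate block takes the place of library set, since each number lies in 1 set. Same-numbered libraries deviated together (correlations of 0.77 and 0.67), with 2 pairs that each lie in 1 set. With the replicate block 1007 genes rose and 1033 fell, and of the members 1 rose (Jag1) and 3 fell (Notch1, Dll1 and Dll4). The numbers of cKO 1 and control 4 each occur in 1 group only. Those libraries therefore do not inform the genotype difference in this fit, which comes from the 2 pairs alone.

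Within each fit, signs changed only for members that did not pass in that fit. Dll3, which passed with library set, was -0.06 with genotype alone and changed sign only in alternatives of that second fit. With library set Notch4, 0.04 in the report, was -0.024 in limma-voom, -0.14 with sex, -0.062 with the replicate block and -0.16 to 0.30 without single libraries. With genotype alone Dll3 was 0.035 with no scaling and -0.27 to 0.37 without single libraries, Notch4 was -0.062 with the replicate block and -0.016 to 0.60 without single libraries, and Notch2 was -0.052 to 0.25 without single libraries. The median of all genes moved to -0.04 with RLE and 0.03 with no scaling in the fit with library set, and to 0.12 with no scaling and genotype alone. Residual degrees of freedom were 3 with library set, and the members had as few as 133 reads in a library; the part of depth in the precision was not tested.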
